A study of Equus caballus with 10 samples.

Results

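Forkhead transcription factors share a winged helix DNA-binding domain and are named FOX with a letter for the subfamily and a number for the gene. Some of them, such as the FOXC and FOXF genes, pattern mesenchyme, the embryonic tissue from which tendon arises. FOXO proteins are held out of the nucleus by insulin and AKT signalling and govern stress resistance and quiescence, FOXM1 drives mitotic genes, and FOXP proteins mainly repress transcription. All gene names of the deposited table made of FOX, a letter from A to S and a digit were taken as members, which gave 43 of its 29196 genes. FOXRED1 and FOXRED2 are not forkhead factors and were left out by this rule.

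The cells were tenocytes of the superficial digital flexor tendon from 5 Thoroughbred or Thoroughbred-type horses, embedded in 3D collagen gels for 14 days. Each donor gave 1 library with PF-06650833 alone and 1 library with IL-1β added to PF-06650833. PF-06650833 inhibits IRAK-4, a kinase downstream of the IL-1 receptor, and was given daily at 100 nM in both groups, while 17 ng/ml IL-1β was given every 3 to 4 days in the second group. Both groups therefore carried the inhibitor, and the comparison asks which forkhead genes differ when IL-1β is added in its presence. No untreated group and no group with IL-1β alone is among these libraries. Whether a change would also occur without the inhibitor therefore cannot be told from them.

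Values are log2 expression after variance stabilization by the authors, on which a gene without reads sits at 3.43. On this scale differences between low values are compressed, and levels of different genes are not comparable because values are not divided by gene length. Reads quoted for a gene are estimates from the spacing of the lowest values, and the libraries held between 26672336 and 36093461 such reads. Differences are IL-1β plus PF-06650833 minus PF-06650833 alone, and differential expression was called where the adjusted p was below 0.05 (limma, Benjamini-Hochberg over 17992 tested genes) and the log2 fold change reached 1 in either direction. This fit and, unless stated, all confidence intervals have no donor term, so differences between donors stay in their error.

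The libraries were checked against markers of tenocytes and of other cells. Of 12 tested tenocyte markers, 5 fell (SCX, MKX, COMP, TNC and LOX), the summed reads of the list ranged from 753357 to 1507398 without IL-1β and from 245495 to 787607 with it, and the tendon gene TNMD had 0 reads in all 10 libraries. Of 10 leukocyte markers 5 (CD3E, CD3D, MS4A1, AIF1, TYROBP) and of 8 epithelial markers 2 (EPCAM, KRT5) were also at 0 throughout. The others, among them PTPRC, KRT8 and KRT18, had reads in some library, and CD68 rose and CDH1 fell. Leukocyte markers summed to 52 to 1549 reads without IL-1β and 149 to 1587 with it, and the 3 tested had positive log2 fold changes with a median of 1.70. Epithelial markers summed to 423 to 1462 and 122 to 338 reads. Endothelial markers summed to 177 to 681 reads without IL-1β and 37 to 78 with it, ranges that do not overlap. Of the 6 tested endothelial markers ERG fell, and of the 4 tested adipocyte markers ADIPOQ rose. The part of other cells in the results on forkhead genes was not tested. In bulk RNA, fewer cells of a type and less RNA per cell cannot be told apart.

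Of the 43 forkhead genes, 29 had reads in at least 5 of the 10 libraries and were tested, and 2 were differentially expressed. FOXC1 rose and FOXP1 fell. These 2 of 29 stand against 6.68% of all tested genes (3.11% higher and 3.57% lower), a share near the background. Its median log2 fold change was -0.04, against -0.01 over all tested genes. With a block for the replicate number, that is the horse, 3 members were differentially expressed, FOXS1 being added as lower, against 8.26% of all genes.

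At an adjusted p below 0.05 without the fold minimum there were 4 members, FOXC1 and FOXF1 higher and FOXP1 and FOXO1 lower, against 15.5% of all genes. With the replicate block there were 9, against 22.2% of all genes. The 3 that were higher were FOXC1, FOXC2 and FOXF1, and the 6 that were lower were FOXJ2, FOXK1, FOXN3, FOXO1, FOXP1 and FOXS1. The groups did not overlap for 3 of the 29 genes (FOXC1, FOXF1 and FOXP1), against 12.7% of all genes, and 9 moved the same way in all 5 donors, against 32.7%.

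**Figure D1:**
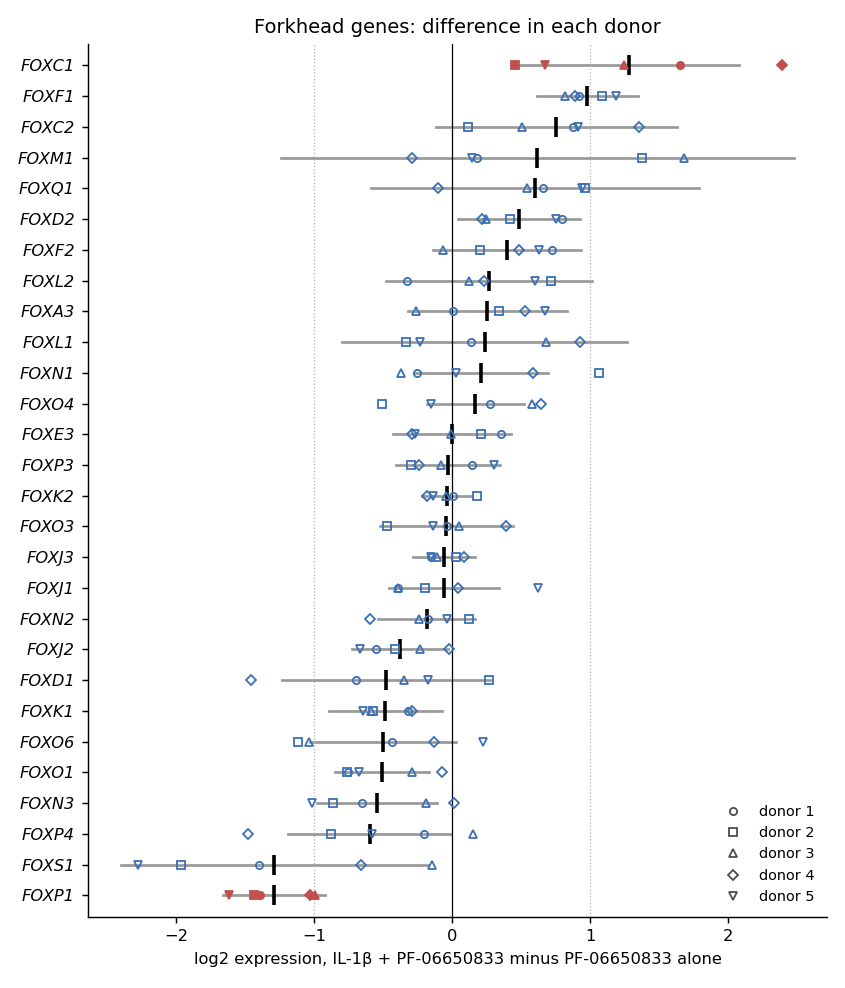
Difference in log2 expression (IL-1β plus PF-06650833 minus PF-06650833 alone) of the tested forkhead genes reported. Symbols are the 5 donors, black ticks the mean, grey lines the 95% confidence interval from limma without the replicate block and dotted lines the fold minimum of 1. The genes marked in red, FOXC1 (1.28) and FOXP1 (-1.29), were differentially expressed.

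FOXC1, a regulator of skeletal, vascular and eye development, had the largest increase of the family. It stood at 8.09, 8.38, 8.11, 8.72 and 8.48 in donors 1 to 5 with PF-06650833 alone, and at 9.74, 8.84, 9.36, 11.11 and 9.15 with IL-1β plus PF-06650833. Every library with IL-1β was above every library without it, and donor 4 stood highest in both groups. The means were 8.36 ± 0.26 (SD, n = 5) and 9.64 ± 0.88 (SD, n = 5), or 2.44-fold. The log2 fold change of 1.28 had a standard error of 0.36 and, from limma, an adjusted p of 0.0345. With the replicate block the limma adjusted p was 0.0131, and FOXC1 was differentially expressed there too.

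The size of FOXC1 depended on donor 4, and its call on more libraries. Without the library of donor 4 with IL-1β plus PF-06650833 the log2 fold change was 0.92 (adjusted p = 0.0121 from limma), under the fold minimum, and without both libraries of donor 4 it was 1.01 (adjusted p = 0.0126). Refits lacking 1 library or 1 donor at a time were made without the replicate block. In them the call was kept in 5 of 15, with limma adjusted p from 0.0121 to 0.146. Besides the library above, the call was lost without PF-06650833 alone in donor 1 (0.0753), donor 2 (0.0638), donor 3 (0.0653) or donor 5 (0.0626), and without donor 1 with IL-1β (0.076). It was lost as well without both libraries of donor 1 (0.146), donor 2 (0.0534), donor 3 (0.0751) or donor 5 (0.0745). In these other refits the log2 fold change stayed between 1.19 and 1.49.

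FOXC2, the close relative of FOXC1 with roles in lymphatic vessels and mesenchyme, was at 6.33, 5.87, 6.73, 7.06 and 6.16 with the inhibitor alone and at 7.21, 5.99, 7.24, 8.41 and 7.08 with IL-1β. The ranges overlapped, since donors differed more than the treatments did, but each donor was higher with IL-1β, by 0.12 to 1.35. Its log2 fold change of 0.75 (95% confidence interval -0.12 to 1.63) had an adjusted p of 0.234 from limma and of 0.0347 with the replicate block, under the fold minimum in both. With the block the interval was 0.28 to 1.23.

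FOXF1, a hedgehog-responsive gene of visceral and lung mesenchyme, was at 8.91, 9.06, 8.58, 8.59 and 8.81 with the inhibitor alone. After IL-1β it was at 9.82, 10.15, 9.40, 9.48 and 10.00. The groups were apart, and the 5 donors differed little in their shifts, from 0.82 to 1.19. The log2 fold change was 0.98 (standard error 0.17, adjusted p = 0.00337 from limma), a value just under the fold minimum, so FOXF1 was not counted as differentially expressed. It passed that minimum on back-transformed log2(normalized count + 1) values, at 1.01 (adjusted p = 0.00324), and after centring each library on its median, at 1.01 (adjusted p = 0.00292). It also passed without the library of donor 1 (1.01) or donor 2 (1.05) with PF-06650833 alone, of donor 3 (1.07) or donor 4 (1.05) with IL-1β, or without both libraries of donor 3 (1.02) or donor 4 (1.00).

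FOXF2, which acts beside FOXF1 in mesenchyme, was at 6.72, 7.48, 7.77, 7.20 and 7.73 without IL-1β and at 7.44, 7.68, 7.71, 7.69 and 8.35 with it. The groups overlapped, and 4 of 5 donors were higher. Its log2 fold change of 0.39 had a 95% confidence interval of -0.14 to 0.93 (adjusted p = 0.314 from limma). With the replicate block the interval was 0.02 to 0.77 and the limma adjusted p 0.121.

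FOXL1, known from the mesenchymal cells that underlie gut epithelium, was at 6.46, 5.80, 5.76, 7.10 and 7.30 with the inhibitor alone and at 6.60, 5.47, 6.44, 8.03 and 7.07 with IL-1β. Donors differed widely in both groups, and 3 of 5 were higher with IL-1β. Its log2 fold change of 0.24 (95% confidence interval -0.79 to 1.27, adjusted p = 0.79 from limma) became -0.09 without the library of donor 4 with IL-1β plus PF-06650833.

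**Figure D2:**
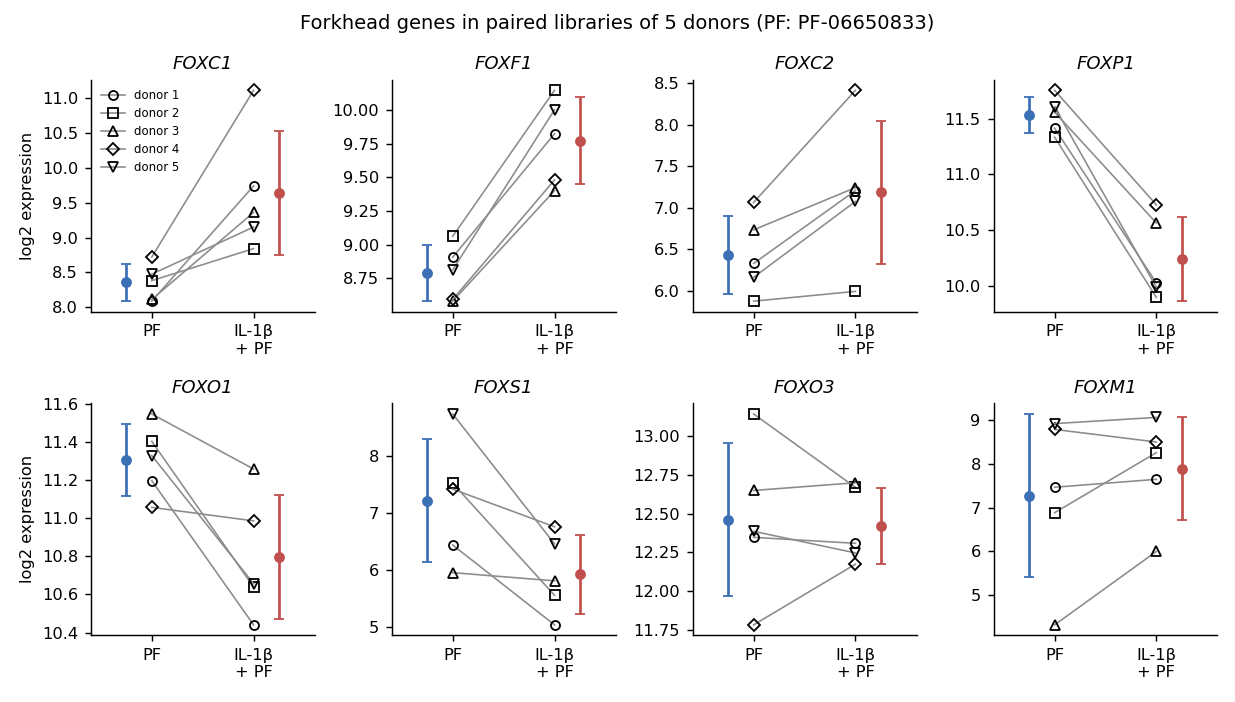
Log2 expression of 8 forkhead genes in the libraries of each donor with PF-06650833 alone (PF) and with IL-1β plus PF-06650833 (IL-1β + PF). Lines join the libraries of a donor and coloured points show the mean ± SD (n = 5); FOXC1, FOXF1 and FOXP1 show no overlap between groups, whereas FOXM1 spans 4.32 to 8.93 between donors with PF-06650833 alone.

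Some forkhead genes lie side by side in the genome. In the gene order of the TB-T2T horse assembly, a different build from the one used for quantification, FOXQ1, FOXF2 and FOXC1 lie together on chromosome 20, and FOXF1, FOXC2 and FOXL1 on chromosome 3. This grouping was made after the values had been seen, so it carries no test. All 6 of these forkhead genes had a positive log2 fold change, as had 8868 of the 17992 tested genes, and 26 of their 30 donor differences were positive. FOXQ1, a gene of epithelial cells and of epithelial-mesenchymal transition, had a log2 fold change of 0.60 with a wide 95% confidence interval of -0.59 to 1.79 (adjusted p = 0.507 from limma, 0.0591 with the replicate block). With the block the interval was 0.16 to 1.04.

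Genes beside or between the clustered forkheads are no forkhead factors and give a limited local comparison. Of 9 annotated genes in the chromosome 20 stretch 4 had no values, as had 2 of 6 in the chromosome 3 stretch. GMDS, a fucose synthesis enzyme next to FOXC1, had a log2 fold change of -0.01 (adjusted p = 0.98 from limma). MTHFSD, which lies between FOXF1 and FOXC2, had 0.26 (adjusted p = 0.168). The long non-coding RNA LOC111769234, between FOXQ1 and FOXF2, had 0.40 (adjusted p = 0.407) on 5 to 32 reads per library. None of these 3 was differentially expressed by limma, and the shifts of FOXC1 and FOXF1 were the largest among the tested genes of their clusters. In the remaining pair of neighbours, on chromosome 2, FOXD2 had a log2 fold change of 0.49 (adjusted p = 0.131) and FOXE3, a lens gene with at most 9 reads per library, of 0.00 (adjusted p = 0.998).

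**Figure D3:**
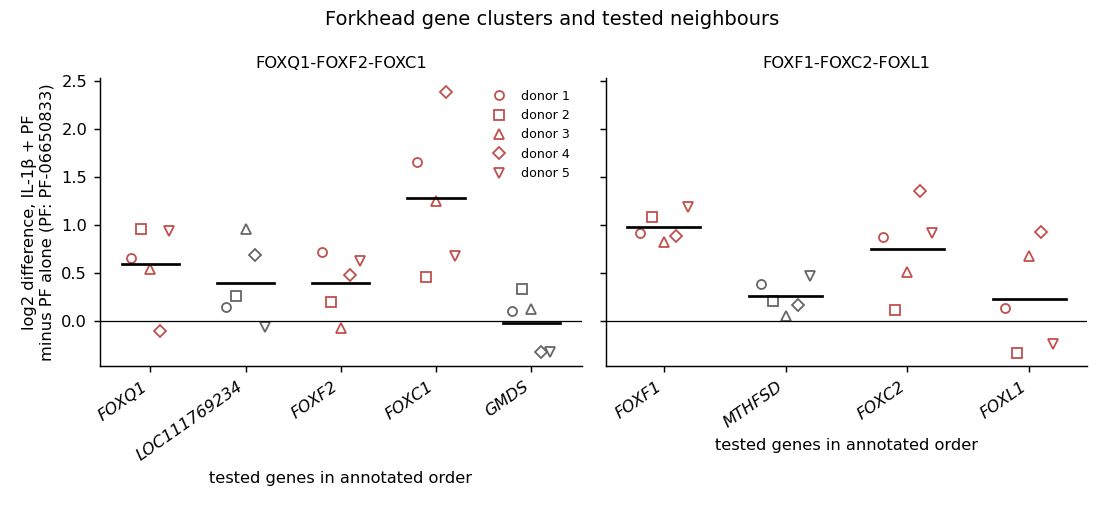
Difference in log2 expression (IL-1β plus PF-06650833 minus PF-06650833 alone) of the tested genes in 2 forkhead clusters, in annotated gene order. Symbols are the 5 donors, bars the mean, red forkhead genes and grey other genes; FOXC1 (1.28) and FOXF1 (0.98) have the largest means, while GMDS beside FOXC1 is at -0.01.

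FOXP1, a transcriptional repressor needed in lymphocytes, heart and lung, had the firmest change of the family. It was at 11.41, 11.33, 11.56, 11.75 and 11.60 in donors 1 to 5 with PF-06650833 alone and at 10.03, 9.90, 10.56, 10.73 and 9.99 with IL-1β plus PF-06650833. No library overlapped between the groups, and each donor fell, by 0.99 to 1.62. The mean of FOXP1 was 11.53 ± 0.16 (SD, n = 5) without IL-1β and 10.24 ± 0.38 (SD, n = 5) with it, or 2.45-fold lower. This log2 fold change of -1.29 had a standard error of 0.17 and a limma adjusted p of 7.99e-04. FOXP1 had 819 reads or more in every library and was called in all 15 refits lacking 1 library or 1 donor, at adjusted p from 3.10e-04 to 0.00963.

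The other FOXP genes did not pass. FOXP4, which can pair with FOXP1, had 1715 to 4243 reads with the inhibitor alone and 967 to 2527 with IL-1β. It was lower in 4 of 5 donors, with a log2 fold change of -0.60 (95% confidence interval -1.19 to -0.01, adjusted p = 0.163 from limma). FOXP3, the factor that defines regulatory T cells, had 7 to 16 reads in every library and a log2 fold change of -0.03 (adjusted p = 0.925). FOXP2 had 1 read in 1 library and was not tested.

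Of the FOXO genes, FOXO1 was lower with IL-1β in every donor, but by less than the fold minimum. It was at 11.20, 11.40, 11.55, 11.06 and 11.33 with the inhibitor alone and at 10.44, 10.64, 11.26, 10.99 and 10.66 with IL-1β. The shifts were -0.29 in donor 3 and -0.07 in donor 4, and from -0.76 to -0.67 in the other donors. The groups overlapped, since donor 3 with IL-1β (11.26) was above donors 1 and 4 without it. Its log2 fold change was -0.51 (SE 0.15, adjusted p = 0.0468 from limma, 0.023 with the replicate block). Without the block the adjusted p was above 0.05 with no filter on low values (0.0533), after centring on library medians (0.0652) and without the mean-variance trend (0.0688). In the 15 refits lacking 1 library or 1 donor it ran from 0.0114 to 0.193. It stayed below 0.05 without donor 4 with PF-06650833 alone (0.0471), donor 3 (0.0114) or donor 4 (0.0405) with IL-1β, and both libraries of donor 3 (0.0214) or donor 4 (0.0411), and was above it in the other refits.

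FOXO3, a factor of stress resistance and autophagy, was at 12.35, 13.14, 12.65, 11.78 and 12.39 without IL-1β and at 12.31, 12.67, 12.70, 12.17 and 12.25 with it. The groups overlapped, and 2 of 5 donors were higher. The log2 fold change of -0.04 had a 95% confidence interval of -0.52 to 0.44 (adjusted p = 0.924 from limma), which leaves room for shifts of either sign below the fold minimum.

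FOXO4, the X-linked member, was at 9.09, 9.66, 9.10, 9.03 and 9.37 with PF-06650833 alone and at 9.37, 9.15, 9.68, 9.68 and 9.22 with IL-1β plus PF-06650833. Its donors moved in both directions, from -0.51 to 0.65. FOXO4 had a log2 fold change of 0.17 (95% confidence interval -0.18 to 0.52, adjusted p = 0.533 from limma). FOXO6 had at most 7 reads in any library and a log2 fold change of -0.50 (adjusted p = 0.191).

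The genes around the FOXO proteins were read from lists of known regulators and targets. These lists were chosen with earlier results of these data known, so counts from them are descriptions and carry no test. Of 33 tested FOXO regulators, 2 were differentially expressed, both lower with IL-1β, a share near the 6.68% of all tested genes. The list had a median log2 fold change of -0.06, against -0.01 over all tested genes. YWHAH, a 14-3-3 protein of the kind that holds phosphorylated FOXO in the cytoplasm, had a log2 fold change of -1.06 (adjusted p = 1.34e-04 from limma). PRKAA2, a catalytic subunit of AMP-activated kinase, had -1.45 (adjusted p = 0.02). Both were lower in all 5 donors. PRKAA2 had 40 to 223 reads without IL-1β and 9 to 41 with it, and its groups overlapped. YWHAH had at least 2803 reads in every library and no overlap. YWHAH kept its call in 14 of 15 refits. Without donor 5 it lost the call only through the fold minimum, at a log2 fold change of -0.997. Its limma adjusted p was at most 0.00319 in all 15 refits. PRKAA2 kept its call in 11, with adjusted p of up to 0.0914. It lost the call without donor 1 with IL-1β or without both libraries of donor 1, 2 or 5. These refits had no replicate block, with which PRKAA2 had a limma adjusted p of 0.00431.

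Of 29 tested FOXO targets, 8 were differentially expressed by limma, 4 higher and 4 lower, against 3.11% higher and 3.57% lower over all tested genes. Because the list was chosen with earlier results of these data known, this share is a description and no test of enrichment. The median log2 fold change was -0.09. PDK4, which restrains glucose oxidation, had a log2 fold change of 2.76 (adjusted p = 0.00439), and SOD2, the mitochondrial superoxide dismutase, which is also a target of NFκB, of 2.52 (adjusted p = 0.00129). FBXO32, a ubiquitin ligase of muscle atrophy, had 1.21 (adjusted p = 0.00846). On the lower side TXNIP, an inhibitor of thioredoxin, had -1.73 (adjusted p = 0.00277) and catalase (CAT) had -1.44 (adjusted p = 0.00175). SOD2 and CAT, both antioxidant enzymes, were apart by sign in all 5 donors. Adipocyte markers, whose reads summed to 21 to 189 without IL-1β and 265 to 3127 with it, were read beside them, and 1 of the 4 tested rose, ADIPOQ. Their part in these values was not tested.

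FOXS1, a gene known from pericytes and the neural crest, was at 6.44, 7.52, 5.95, 7.41 and 8.73 with PF-06650833 alone and at 5.04, 5.56, 5.81, 6.76 and 6.46 with IL-1β plus PF-06650833. It was lower in every donor, by 0.14 in donor 3 and by up to 2.27 in donor 5, yet the groups overlapped. The log2 fold change of -1.29 (standard error 0.51) had an adjusted p of 0.113 from limma. With the replicate block the same difference had an adjusted p of 0.0254 and was counted as differentially expressed. Without the block it also passed when donor 3 with PF-06650833 alone was left out (-1.60, adjusted p = 0.0484). FOXS1 had 32 to 387 reads without IL-1β and 12 to 62 with it.

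Markers of mural cells, the pericytes and smooth muscle cells of vessels, were read beside FOXS1. Of 7 tested mural markers, 2 had positive and 5 negative log2 fold changes, and 2 fell, RGS5 (log2 fold change -1.96, adjusted p = 0.0106 from limma) and DES (-2.98, adjusted p = 0.00546). Their summed reads ranged from 9050 to 60751 without IL-1β and from 13891 to 22536 with it, ranges that overlap, and none of the 7 was at 0 in all libraries. The mean log2 expression of the 7 was higher with IL-1β in donor 3 (9.21 against 8.41) and lower in the other 4 donors. Their part in the FOXS1 result was not tested.

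FOXD1, a factor of stromal progenitors, had few reads. It was at 4.13, 4.95, 4.68, 4.89 and 4.80 with the inhibitor alone, which is 2 to 11 reads, and at 3.43, 5.22, 4.33, 3.43 and 4.63 with IL-1β, which is 0 to 16 reads. The groups overlapped. The log2 fold change was -0.48 (95% confidence interval -1.23 to 0.27, adjusted p = 0.391 from limma), and on the log2(normalized count + 1) scale it was -1.25 (adjusted p = 0.36).

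Among forkhead factors that most cells express, FOXK1, FOXN3 and FOXJ2 had negative log2 fold changes that passed at any fold with the replicate block. FOXK1, a regulator of glycolysis and autophagy, had a log2 fold change of -0.48 and was lower in all 5 donors (adjusted p = 0.106 from limma, 0.00786 with the replicate block). FOXN3, a repressor linked to cell cycle checkpoints, had -0.54 (adjusted p = 0.0911, and 0.0442 with the block), with a shift of 0.01 in donor 4 and of -1.01 in donor 5. FOXJ2 had -0.38 and was lower in all 5 donors (adjusted p = 0.135, and 0.0424 with the block). All 3 had at least 1320 reads in every library and stayed under the fold minimum.

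Other widely expressed members had values nearer to 0. FOXK2, the paralogue of FOXK1, had a log2 fold change of -0.04 with a narrow 95% confidence interval of -0.21 to 0.14 (adjusted p = 0.82 from limma). FOXJ3 had -0.06 (-0.28 to 0.16) and FOXN2 -0.18 (-0.54 to 0.17). FOXL2, a factor of ovarian granulosa cells, had at most 39 reads per library and a log2 fold change of 0.27 (adjusted p = 0.658).

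Members known from other tissues had few reads. FOXA3 (liver), FOXE3 (lens), FOXJ1 (motile cilia), FOXN1 (thymic epithelium), FOXO6 and FOXP3 had, like FOXD1, at most 20 reads in every library, and none of them had an adjusted p below 0.05. Of 13 tested motile cilium genes that act downstream of FOXJ1, 0 were differentially expressed by limma with or without the replicate block, and 0 had an unadjusted p below 0.05. Across the 17 tested members outside the 12 described in every library, log2 fold changes ran from -0.60 (FOXP4) to 0.60 (FOXQ1), and the smallest adjusted p was 0.0911.

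The 14 untested members had few or no reads. FOXA2, FOXB1, FOXB2, FOXD3, FOXI1, FOXI2, FOXI3, FOXR1 and FOXR2, 9 genes in all, had 0 reads in all 10 libraries. FOXE1 (1 library) and FOXH1 (3 libraries) had 1 to 3 reads where they were found. FOXN4, a retinal factor, had 5 reads in donor 1 with PF-06650833 alone. After IL-1β it had 1, 2 and 18 reads in donors 2, 3 and 4. FOXA1, a pioneer factor of endoderm that opens closed chromatin, had 0 reads in the 5 libraries with PF-06650833 alone and 4, 8, 0, 2 and 2 reads in donors 1 to 5 with IL-1β plus PF-06650833. It was not tested, and no fold is given against a group without reads.

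FOXM1, which switches on genes of mitosis and falls silent in resting cells, varied more between donors than any other tested member. It was at 7.47, 6.89, 4.32, 8.79 and 8.93 in donors 1 to 5 with PF-06650833 alone, which is from 3 reads in donor 3 to 447 in donor 5. After IL-1β it was at 7.65, 8.26, 6.0, 8.51 and 9.07. Donor 3 was lowest and donor 5 highest in both groups. The log2 fold change of 0.62 had a 95% confidence interval of -1.24 to 2.48 (adjusted p = 0.685 from limma, 0.183 with the replicate block), and it was -0.12 without the library of donor 3 with PF-06650833 alone and 0.94 on the log2(normalized count + 1) scale. With the block the interval was -0.08 to 1.32.

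A list of 25 mitotic genes known as FOXM1 targets followed FOXM1 from library to library. Their mean log2 expression was 9.03, 8.33, 5.98, 10.02 and 10.15 in donors 1 to 5 without IL-1β and 9.15, 9.81, 7.34, 9.88 and 10.70 with it. Ranked by FOXM1 and by this mean, the 10 libraries came in the same order. Libraries of a donor share their cells, and all mitotic genes share the fraction of dividing cells, so the order is a description.

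Of these 25 targets, 0 were differentially expressed by limma and 1 had an unadjusted p below 0.05, while 4 (AURKB, CDC25B, CDK1 and UBE2C) were higher with the replicate block, against 8.26% of all genes in either direction. The median log2 fold change of the list was 0.67, and 24 of the 25 were positive, against 8868 of the 17992 tested genes. This list too was chosen with earlier results of these data known, so these counts carry no test. The mean of the list was higher with IL-1β in 4 of 5 donors. CDC25B, a phosphatase that activates the mitotic kinase CDK1, was at 9.57, 9.82, 8.58, 10.82 and 10.41 without IL-1β and at 10.79, 11.46, 9.89, 11.82 and 11.80 with it. It was higher in all 5 donors, with a log2 fold change of 1.31 (adjusted p = 0.0758 from limma, 3.34e-04 with the block). AURKB, a kinase of chromosome segregation, had 1.20 (adjusted p = 0.401, and 0.0305 with the block).

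**Figure D4:**
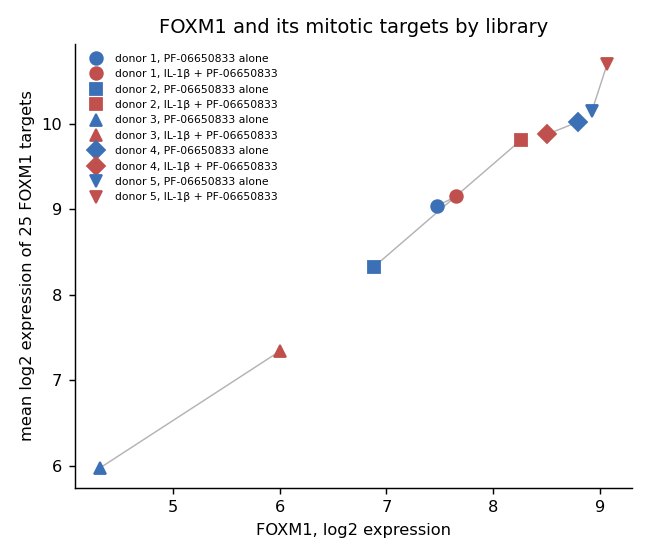
FOXM1 log2 expression against the mean log2 expression of 25 of its known targets in each of the 10 libraries. Blue marks PF-06650833 alone, red IL-1β plus PF-06650833, symbols the donor, and lines join the libraries of a donor; the libraries run in the same order on both axes, from donor 3 (4.32 and 5.98 with PF-06650833 alone) to donor 5.

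Hedgehog signalling acts upstream of FOXF1, FOXF2 and FOXL1 in mesenchyme. Of 19 tested genes of the pathway, 4 were differentially expressed and all 4 were lower with IL-1β, against 3.57% lower over all tested genes. As the list was chosen with earlier results of these data known, this share is a description and no test of enrichment. The median log2 fold change of the list was -0.14. The co-receptors GAS1, BOC and CDON, which help cells bind the ligand, had log2 fold changes of -1.81 (adjusted p = 0.00336 from limma), -1.51 (adjusted p = 0.0302) and -1.28 (adjusted p = 0.0108). GLI3, a transcription factor of the pathway that acts mainly as a repressor, had -1.19 (adjusted p = 0.0209). GAS1 kept its call in 15 of 15 refits lacking 1 library or 1 donor, and CDON in 13, losing it without donor 2 or 5. GLI3 kept it in 7, with adjusted p from 0.00616 to 0.112, and lost it without donor 4 or 5 with PF-06650833 alone, donor 1, 2 or 5 with IL-1β, or both libraries of donor 1, 2 or 5. BOC kept it in 6, with adjusted p from 0.00753 to 0.134, and lost it without donor 1, 2, 3 or 5 with PF-06650833 alone, donor 1 or 2 with IL-1β, or both libraries of donor 1, 2 or 5. All 4 were lower in 5 of 5 donors, and FOXF1 was higher in 5 of 5. Whether pathway activity differed was not tested, nor was a link of these genes to FOXF1. The ligand gene SHH had 0 reads in all libraries. The refits had no replicate block. With the block 6 genes of the list were differentially expressed, 5 lower and 1 higher, against 8.26% of all genes. The higher gene was HHIP, an antagonist of the pathway. GAS1 (limma adjusted p = 0.00229), BOC (0.0195), CDON (0.0056) and GLI3 (0.00903) were among the 6.

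The spread of each gene over the 10 libraries was divided between treatment (1 degree of freedom), donor (4) and the remainder (4). Over the 29 tested members the median shares were 13.8% for treatment and 55.7% for donor, against 19.1% and 45.8% over all tested genes. The donor share was larger than the treatment share in 21 of the 29. Donor has 4 degrees of freedom against 1 for treatment. The matching count over all tested genes was not made, so 21 is no trait of the family. Treatment took 86.1% of the spread of FOXP1, 80.3% of FOXF1, 54.8% of FOXC1 and 53.7% of FOXO1. At the other end donor took 88.1% of FOXM1, 86.8% of FOXL1, 85.1% of FOXQ1 and 83.7% of FOXO3. FOXO4 had most in the remainder, 81%, followed by FOXJ1 (75%) and FOXN1 (67.4%), both with few reads. The same donor was highest, and the same donor lowest, in both groups for 11 of the 29 members, against 13% of all tested genes, among them FOXC2, FOXM1, FOXP1 and FOXQ1.

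**Figure D5:**
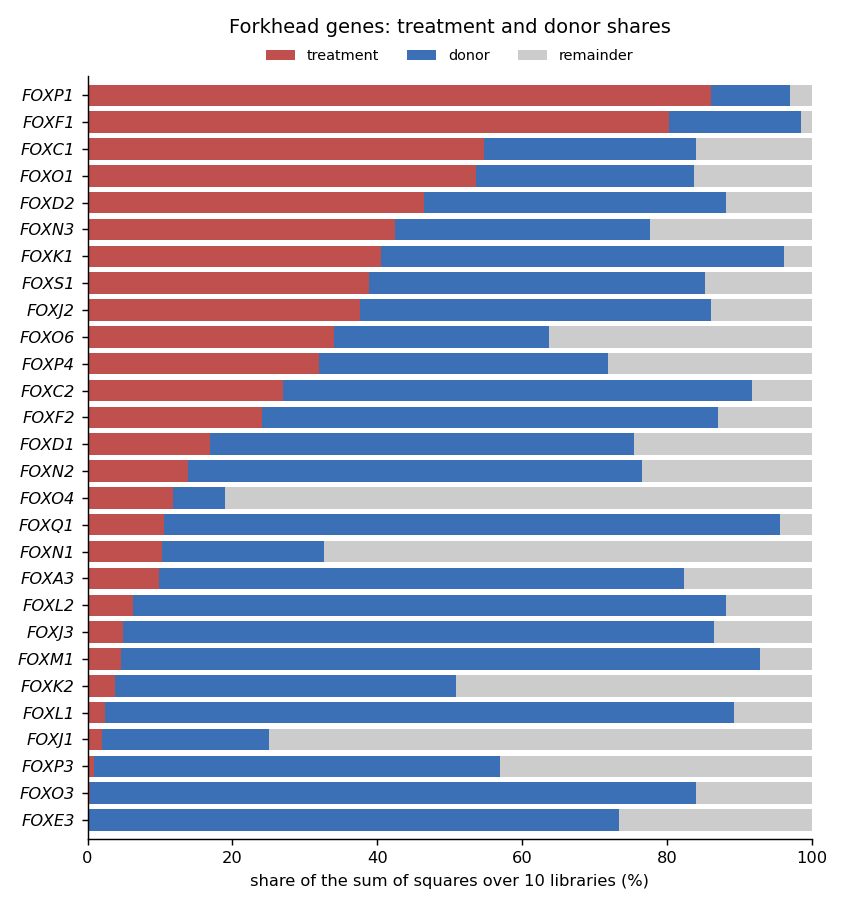
Share of the sum of squares over the 10 libraries, in percent, taken by treatment (red), donor (blue) and the remainder (grey) for each tested forkhead gene reported. FOXP1 and FOXF1 lead by treatment (86.1% and 80.3%), whereas FOXM1, FOXL1 and FOXQ1 were mostly donor.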

How the data were processed

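RNA of 10 libraries, 5 per group, was analysed. The authors quantified reads with Salmon (version 1.8, with correction for GC bias) on EquCab3.0 transcripts, used tximport for gene totals and deposited log2 values, which their shape shows to be variance-stabilized and normalized between libraries. The transformation is not named in the sources used here. All 29196 genes and 10 value columns were read. The members and gene lists were chosen with earlier results of these data known.

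The 17992 genes that exceeded 3.43, the level of 0 reads, in 5 or more libraries entered limma 3.58.1 under R 4.3.3, with trended variances and no donor term, as the study names none. Donors were taken from the line in the sample labels. Libraries of a donor deviated together from their group means (correlation across genes 0.367 to 0.506 in 5 pairs), so a fit with the replicate block was set beside it. The fit without the block was tested on simulated data with independent noise in each library. It recovered 195 of 200 changed genes and called 5 unchanged ones. All planted changes were larger in size than the log2 fold change of any tested forkhead gene. The recovery therefore does not show how often shifts as small as those of the family would be found. The simulation had no donor effect, so it cannot show how the fit behaves on paired libraries. Normalized counts and reads were estimated by inverting the variance stabilization and from the spacing of the lowest values, of which 70.1% to 86.3% lay within 0.15 of a whole read. Members with values in every library are those differentially expressed with or without the block or at an adjusted p below 0.05, and FOXC1, FOXC2, FOXD1, FOXF1, FOXF2, FOXL1, FOXM1, FOXO1, FOXO3, FOXO4, FOXP1 and FOXS1 whatever their values. From each pathway list up to 5 differentially expressed genes were named by absolute log2 fold change, or the 2 of smallest p. 1 tested member, counted in the totals, is not reported here. No sequences are shown. Alternatives were other scales, filters, normalizations, the variance model, the threshold, the block, and dropping single libraries or donors. The fits that dropped libraries or donors had no block.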

Additional observations from a re-analysis of the deposited data

Results flagged for a closer look

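Of 50 groups of 5 libraries, for the genes given with their values, 1 had an outlying library by Dixon's test, where chance gives about 2.5. BOC, a hedgehog co-receptor, was at 12.24 in donor 4 with PF-06650833 alone (4413 reads), against 13.16 to 13.47 in the other 4 donors.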

How the results depend on the processing

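The 2 differentially expressed forkhead genes became 3 with the replicate block, 4 with the block on log2(normalized count + 1), 4 with no fold minimum and 9 with the block and no fold minimum, the last chosen after seeing the data. Higher genes numbered 2 with log2(normalized count + 1), with or without the block, with log2(normalized count + 4), after centring on library medians and with no fold minimum. Lower genes numbered 2 with the block on either scale and with no fold minimum. Over all tested genes the 1202 became 1809 with the block on log2(normalized count + 1) and 2782 with no fold minimum. FOXO regulators numbered 8 with no fold minimum, and FOXM1 targets 4 with the block on either scale. The causes were not tested, beyond the wider threshold itself.

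Leaving out 1 library or 1 donor gave 1 to 3 forkhead genes, 0 to 2 higher and 1 to 2 lower, 762 to 1422 genes in all, 0 to 3 FOXO regulators, 5 to 9 FOXO targets, 0 to 1 FOXM1 targets and 1 to 5 hedgehog genes. Log2 fold changes changed sign in these refits for FOXL1 (-0.0913 to 0.549), FOXM1 (-0.122 to 1.09) and FOXO3 (-0.21 to 0.13), none of them called. FOXD1 has no value under the filter that asks for reads in all 10 libraries. Among members with few reads or values near 0, the sign also varied in these refits for FOXE3 (-0.12 to 0.08), FOXJ1 (-0.23 to 0.02), FOXK2 (-0.09 to 0.0043), FOXN1 (-0.0023 to 0.35) and FOXP3 (-0.12 to 0.04). FOXO1, below 0.05 at any fold with and without the block, reached 0.0533 with no filter, 0.0652 after centring and 0.0688 without the trend, each without the block. Among members given in every library, the replicate block changed no other call than that of FOXS1. Low reads limit FOXD1 and the other members with at most 20 reads per library.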
